A study of Mus musculus with 4 samples.

Results

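The miRNAs described here are those that mark red blood cells and their precursors: mmu-miR-451a, both arms of miR-144 (mmu-miR-144-5p and mmu-miR-144-3p) and both arms of the paired miR-486 hairpins (mmu-miR-486a-5p, mmu-miR-486a-3p, mmu-miR-486b-5p and mmu-miR-486b-3p). They are 7 of the 1979 mature miRNAs in the small RNA table of a study of miR-146a, and were taken by name. The names were chosen from the mutant to wild-type ratios of this same table, together with the known place of these miRNAs in the red cell lineage, so those ratios are described below without a test. Of the 7, 3 passed a minimum mean of 10 reads per 1000000 counts (RPM) over the libraries (mmu-miR-451a, mmu-miR-486a-5p and mmu-miR-486b-5p), as did 251 miRNAs of the table.

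The libraries came from resting bone marrow–derived macrophages (BMDMs), which are marrow cells grown into macrophages with the growth factor M-CSF. The 4 libraries were WT A and WT B from wild-type animals, KO from animals that lack *mir-146a*, and 3′F from animals homozygous for a *mir-146a* allele in which a stretch of the duplex outside the seed was exchanged between its strands. Both mutant alleles were made in V6.5 ES cells and backcrossed to C57BL6/J, and every cell of the animal carries them. All animals were 6 to 7 months old and of mixed 129/B6 background, with 3 mice of each genotype. The marrow was plated at 85000 cells per cm2 and cultured for 8 to 9 days in 10 ng/ml M-CSF, and all cultures then spent 16 h in fresh medium without LPS. WT A and WT B are identified by the study as biological replicate cultures, and the labels do not say whether a library pools mice. The depth of WT A, WT B, KO and 3′F was 17073442, 11410940, 19087640 and 16194595 counts, and 3 counts correspond to 0.176, 0.263, 0.157 and 0.185 RPM, respectively. The targeted miRNA followed the labels: miR-146a-5p stood at 6253, 5485, 13.4 and 6.64 RPM in the same order, and the line for the exchanged miRNA had counts in 3′F and 0 in each of the other libraries. That line serves here as a check of the label and not as a level, since adapter ligation favours some small RNA sequences over others. For the same reason, levels of different miRNAs in a library are not strictly comparable, whereas each miRNA can be compared between libraries. KO and 3′F have 1 library each, so no replicate checks how far each stands from WT, and no p-value is given. Both are set against the same WT libraries and are therefore not independent of each other.

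miRNAs are short RNAs that guide Argonaute proteins to mRNAs, mainly through the seed near their 5′ end, and so lower the output of those mRNAs. *Mir144* and *Mir451a* are transcribed together under the erythroid factor GATA1 and are among the most abundant miRNAs of maturing red cells. Most miRNA hairpins, miR-144 among them, are cut by Drosha and then by Dicer, which leaves a duplex of a 5p and a 3p strand. The miR-451 precursor is too short for Dicer: Ago2 itself slices its 3′ side, and the remaining 5′ strand is trimmed to the mature miRNA. miR-486 comes from within *Ank1*, the gene of the ankyrin that ties the red cell membrane to its skeleton, and is abundant in red cells and in muscle. Bone marrow, from which the BMDMs were grown, is where red cells are made in the adult.

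The mature sequences are shown for the cluster mates because their seeds and their places in the hairpins differ. They were read from a table of RefSeq records on GRCm38.p6, in which 3 of the 7 miRNAs were matched. They run 5′ to 3′ with bases 2 to 8, the seed, in capitals.
mmu-miR-451a: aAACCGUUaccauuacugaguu
mmu-miR-144-5p: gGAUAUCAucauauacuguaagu
mmu-miR-144-3p: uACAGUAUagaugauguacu
The 3 seeds differ from each other, and 0 other mature miRNAs in that table carry any of them over bases 2 to 8. Over bases 2 to 7, miR-144-3p shares its seed with miR-101a-3p.

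By the GENCODE vM21 annotation of GRCm38, *Mir144* (ENSMUSG00000065401.1) spans chr11:78073005-78073070 on the plus strand, and *Mir451a* (ENSMUSG00000070065.1) spans chr11:78073170-78073241 on the same strand. The hairpins are separated by 99 bp and take up 237 bp in all. Another annotated hairpin, *Mir451b* (ENSMUSG00000104813.1), lies on the minus strand over the span of *Mir451a*, and the nearest protein-coding gene, *Eral1*, lies 134 bp further on, on the minus strand. The hairpins are printed with the mature strands in capitals.
Mir144 hairpin: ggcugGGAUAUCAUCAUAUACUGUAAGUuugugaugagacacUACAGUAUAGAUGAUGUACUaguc
Mir451a hairpin: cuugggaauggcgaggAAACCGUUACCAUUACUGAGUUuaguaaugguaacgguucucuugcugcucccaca
RNAfold 2.7.2 predicted 27 base pairs and a loop of 6 bases for the 66-nt *Mir144* hairpin (minimum free energy -28.6 kcal/mol). In that fold, miR-144-5p and miR-144-3p lie on opposite sides of the loop, with 20 of 23 and 19 of 20 of their bases paired and 0 bases in the loop. For the 72-nt *Mir451a* hairpin, RNAfold predicted 30 base pairs and a loop of 4 bases (-43.3 kcal/mol). There miR-451a fills positions 17 to 38 of the hairpin, 17 of its 22 bases are paired, and its last 4 bases are the whole loop.

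**Figure D1:**
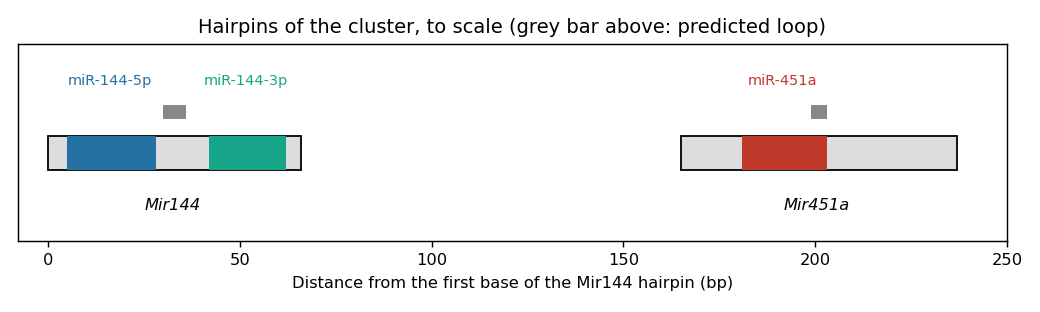
The *Mir144* and *Mir451a* hairpins drawn to scale along the distance in bp from the first base of *Mir144*, with mature strands in colour and the predicted loop as a grey bar above each hairpin. The strands of miR-144 flank its loop, whereas miR-451a runs into its own loop from the 5′ side.

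*Mir486* (ENSMUSG00000070084.3) is a 128-nt hairpin gene on the plus strand at chr8:23142555-23142682. *Mir3107* (ENSMUSG00000106471.1), the hairpin of miR-486b, is annotated on the minus strand at chr8:23142573-23142662, so that all 90 bp of it lie inside *Mir486*. Both are inside *Ank1* (chr8:22974844-23150497, plus strand), where 0 *Ank1* exons overlap the hairpin and 15 of the 17 annotated *Ank1* transcripts have it in an intron. The a and b hairpins are therefore opposite strands of the same bases, and reads that match both can be divided between their lines. Counts of a single line were not always whole, as in WT B with 724.5 for miR-486a-5p and 736.5 for miR-486b-5p, but the a and b lines added up to whole numbers in every library and for both arms. The b line took between 50.4% and 51.2% of the 5p sum, but of the 3p sum it took 5.56% in WT A and KO, 0% in WT B and 5.93% in 3′F. On account of this, the a and b lines of an arm are not independent measurements of different miRNAs, and their sum is used below wherever miR-486-5p or miR-486-3p is named without a letter.

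miR-451a was lower in both mutant libraries than in either WT library. WT A held 319 counts of it, WT B 342, KO 78 and 3′F 130, all of them whole numbers. The level of WT A was 18.7 RPM (95% Wilson interval 16.7 to 20.8) and that of WT B 30.0 RPM (27.0 to 33.3), against 4.09 RPM (3.27 to 5.10) for KO and 8.03 RPM (6.76 to 9.53) for 3′F. None of the 4 intervals overlap, including those of the WT libraries. These and all later intervals cover counting error only, which leaves out the variation between cultures. PCR copies of a molecule are counted as separate reads, so the intervals can be too narrow even for counting error. The WT mean was 24.3 ± 7.98 RPM (SD, n = 2 cultures). KO lay 4.57-fold below WT A, the nearer WT library, and 7.33-fold below WT B, while 3′F lay 2.33-fold and 3.73-fold below them. On the scale of log2(RPM + 1), KO differed from the WT mean by -2.28 and 3′F by -1.45, whereas WT B differed from WT A by 0.65. Its place by level among the mature miRNAs, counted from the most abundant, was 209 for WT A, 189 for WT B, 302 for KO and 257 for 3′F.

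Both arms of miR-144, the cluster mate, were measured at far lower levels, and in RPM the order of the libraries was that of miR-451a. For miR-144-5p, WT A had 14 counts (0.82 RPM), WT B 21 (1.84 RPM), KO 3 (0.16 RPM) and 3′F 7 (0.43 RPM). For miR-144-3p, the arm whose targets are usually studied, the WT libraries had 7 counts each (0.41 RPM for WT A and 0.61 RPM for WT B), and the mutants 2 each (0.10 RPM for KO and 0.12 RPM for 3′F). With so few counts, each arm is better read as a ratio of its RPM to that of the summed WT libraries, with an exact counting interval. For both arms together, KO had a ratio of 0.152 (95% interval 0.0473 to 0.380) and 3′F of 0.323 (0.140 to 0.665). For miR-144-3p alone, KO had a ratio of 0.213 (0.0235 to 0.928) and 3′F a ratio of 0.251 (0.0277 to 1.09), on 2 counts each. Each arm in KO, and miR-144-3p in 3′F, was at or below 3 counts, the limit that a count of 0 allows.

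miR-486-5p was the most abundant product of the group and was also lower in both mutants, by less than miR-451a. Over the a and b lines, WT A held 2572 counts (151 RPM), WT B 1461 (128 RPM), KO 1263 (66.2 RPM) and 3′F 1168 (72.1 RPM). The WT mean was 139 ± 16.0 RPM (SD, n = 2 cultures), from which KO differed by -1.06 and 3′F by -0.94 on the log2(RPM + 1) scale, and WT B differed from WT A by -0.23. Relative to the summed WT libraries, the level was 0.467 in KO (95% counting interval 0.438 to 0.498) and 0.509 in 3′F (0.477 to 0.544). The mutants did not overlap the WT libraries, and they were close to each other. Taken apart, mmu-miR-486a-5p stood at 74.1, 63.5, 32.3 and 35.2 RPM, and mmu-miR-486b-5p at 76.6, 64.5, 33.8 and 37.0 RPM, in WT A, WT B, KO and 3′F. In RPM the lines were 1.96-fold and 1.91-fold lower than the nearer WT library in KO, and 1.81-fold and 1.75-fold lower in 3′F. The 2-fold threshold used below was applied to RPM + 1, on which mmu-miR-486a-5p was at 0.517 of the nearer WT library in KO and 0.561 in 3′F, and mmu-miR-486b-5p at 0.532 and 0.579, just outside it. miR-451a, at 0.259 in KO and 0.459 in 3′F, was inside it.

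The 3p arm of miR-486 went another way. For mmu-miR-486a-3p, WT A had 68 counts (3.98 RPM) and WT B 10 (0.88 RPM), whereas KO had 59.5 (3.12 RPM) and 3′F 55.5 (3.43 RPM). Both mutants lay between the WT libraries, and WT B differed from WT A by -1.41 on the log2(RPM + 1) scale. WT libraries at least 2-fold apart were seen in 4 of the 439 miRNAs with a mean of at least 1 RPM (0.911%), of which miR-486a-3p was a member. mmu-miR-486b-3p was near the limit of detection, with 4 counts in WT A (0.23 RPM), 0 in WT B and 3.5 in each mutant (0.18 RPM for KO and 0.22 RPM for 3′F). For the 3p arm, then, the data show no difference between mutants and WT that is larger than the difference between the WT cultures.

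**Figure D2:**
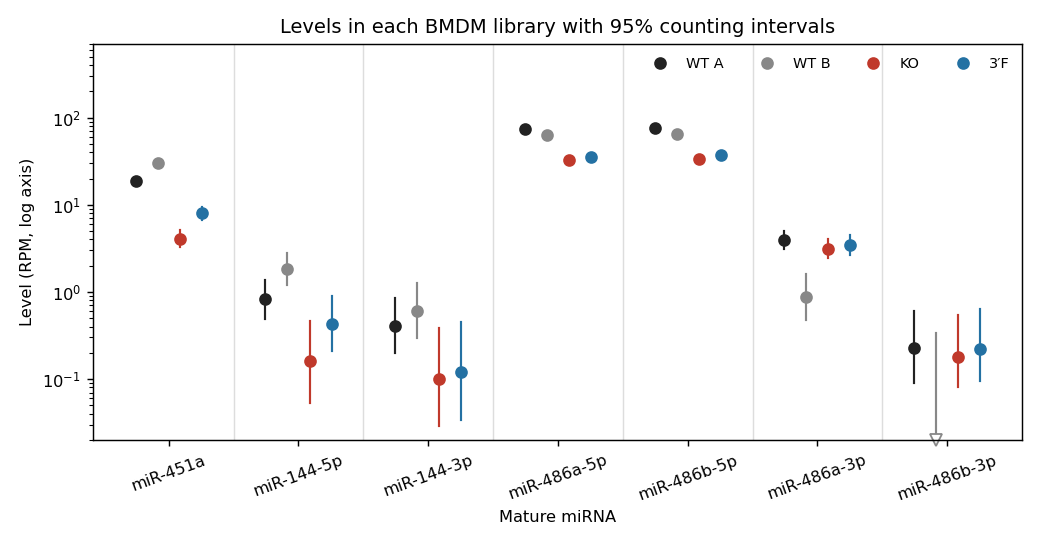
Level of each miRNA in RPM (log axis) in WT A (black), WT B (grey), KO (red) and 3′F (blue), with points for the library values and bars for 95% Wilson intervals; the open triangle marks a count of 0, with the bar reaching its upper limit. KO and 3′F lie below both WT libraries for miR-451a, both miR-144 arms and both miR-486-5p lines, and between them for the miR-486-3p lines.

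Over the group, 5 of the 7 miRNAs were lower in both mutants than in both WT libraries, the exceptions being mmu-miR-486a-3p and mmu-miR-486b-3p. All 3 that passed 10 RPM were among the 5. Over all 251 miRNAs with a mean of at least 10 RPM, 69 (27.5%) had both mutants below both WT libraries. Against a threshold of 2-fold below both WT libraries on the log2(RPM + 1) scale, 1 of the 3 passed in KO and in 3′F, miR-451a. It met the minimum of 10 RPM through the WT libraries alone, since in KO and 3′F it was below that level. That threshold was passed by 4 of the 251 (1.59%) in KO, namely miR-451a, the targeted miR-146a-5p, miR-504-5p and miR-34c-5p, and by 2 of the 251 (0.797%) in 3′F, miR-146a-5p and miR-451a. With a pseudocount of 0.1 RPM in place of 1 RPM, 5 passed in KO. Without WT A the count in KO was 9, and without WT B both miR-486-5p lines passed as well as miR-451a in KO and in 3′F. Since the group was chosen by these ratios, the counts describe it and do not test it. Ordered by the log2 ratio from the lowest, miR-451a was number 3 of 251 in KO and number 2 in 3′F, and the miR-486-5p lines were numbers 6 and 7 in KO and 3 and 4 in 3′F. The median ratio of all 251 was 0.01 in KO and -0.08 in 3′F. Summed over the 7 lines, the group made up 175 and 161 RPM in the WT libraries A and B, 73.8 RPM in KO and 84.4 RPM in 3′F. Because the libraries are bulk RNA, fewer cells that hold these miRNAs and less of them per cell cannot be told apart.

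**Figure D3:**
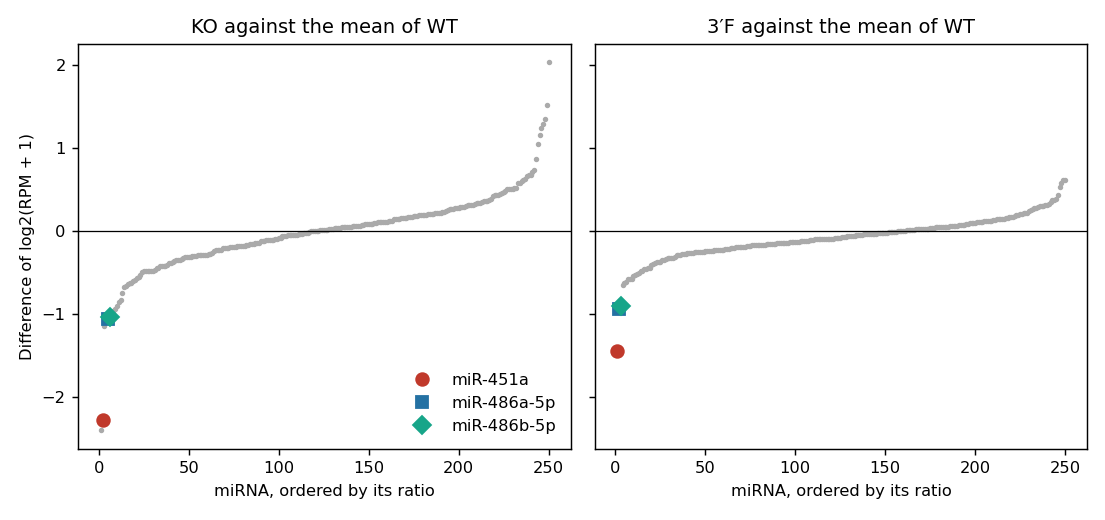
Difference of log2(RPM + 1) from the WT mean for each miRNA with a mean of at least 10 RPM, in ascending order, for KO (left) and 3′F (right); miR-146a-5p, the targeted miRNA, is left out. The marked miR-451a sits at -2.28 in KO and -1.45 in 3′F, and the miR-486-5p lines, whose marks overlap, lie close to -1 in both.

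The proportion of the cluster mates did not differ detectably between the libraries. Counts of miR-451a over those of both miR-144 arms gave 15.2 (95% interval 9.77 to 24.9) for WT A, 12.2 (8.30 to 18.7) for WT B, 15.6 (6.41 to 49.4) for KO and 14.4 (7.38 to 32.3) for 3′F. The highest of these ratios was 1.28 times the lowest, and all 4 intervals overlapped. Over single arms the spread was larger, at 1.60 times for miR-144-5p (16.3 to 26) and 1.67 times for miR-144-3p (39 to 65). The intervals in KO and 3′F rest on 5 and 9 miR-144 counts, so that a sizeable change in the proportion would not be detectable. The strands of miR-144 also did not separate: the 3p share of its counts was 33.3% (17.2 to 54.6) for WT A, 25% (12.7 to 43.4) for WT B, 40% (11.8 to 76.9) for KO and 22.2% (6.32 to 54.7) for 3′F.

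Proportions that reach across loci were less alike. miR-451a over miR-486-5p was 0.124 (0.110 to 0.139) for WT A, 0.234 (0.207 to 0.264) for WT B, 0.0618 (0.0485 to 0.0777) for KO and 0.111 (0.0921 to 0.134) for 3′F. The highest of these was 3.79 times the lowest. WT A and 3′F overlapped, whereas WT B stood above and KO below both. Among the WT libraries themselves, miR-451a was higher in WT B and miR-486-5p was higher in WT A.

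The proportion of the arms of miR-486 also differed between libraries. The 3p share of all miR-486 counts was 2.72% (95% Wilson interval 2.17 to 3.42) for WT A, 0.680% (0.370 to 1.25) for WT B, 4.75% (3.73 to 6.03) for KO and 4.81% (3.75 to 6.15) for 3′F. The mutants were close to each other and above both WT libraries, and WT B stood far below WT A. The share rests on 72, 10, 63 and 59 counts of the 3p arm in WT A, WT B, KO and 3′F. In RPM the 3p arm was at 4.21, 0.88, 3.30 and 3.65, so that between WT A and the mutants the share differed mainly through the 5p arm, and between WT A and WT B mainly through the 3p arm.

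**Figure D4:**
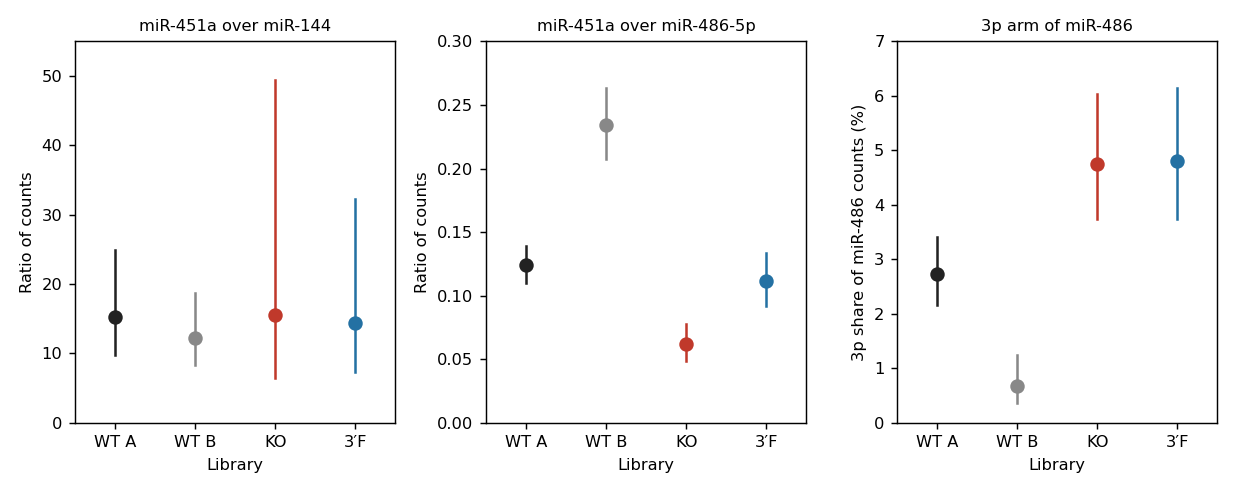
Ratios within each library, with points for values and bars for 95% counting intervals: counts of miR-451a over both miR-144 arms (left), miR-451a over miR-486-5p (middle) and the 3p share of miR-486 counts in percent (right). The left panel spans 12.2 to 15.6 with overlapping bars, while the middle and right panels differ between libraries, with WT B highest in the middle and lowest on the right.

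miR-451a over miR-23a-3p is in use as an index of red cell lysis in plasma, since miR-23a-3p changes little with lysis. Here miR-23a-3p stood at 8944, 8822, 7841 and 8907 RPM in WT A, WT B, KO and 3′F. Counts of miR-451a per 1000 counts of miR-23a-3p came to 2.09 (1.87 to 2.33) for WT A, 3.40 (3.05 to 3.78) for WT B, 0.521 (0.412 to 0.650) for KO and 0.901 (0.753 to 1.07) for 3′F. The order was that of the RPM, with the highest 6.52 times the lowest, against 7.33 times in RPM. For miR-486-5p the same index was 16.8 and 14.5 in the WT libraries, 8.44 in KO and 8.10 in 3′F, with the highest 2.08 times the lowest.

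Other miRNAs linked to red cells stood close to WT. The list held 14, among them miR-16-5p, miR-25-3p, miR-92a-3p, miR-22-3p, miR-210-3p and the miR-96, miR-182 and miR-183 cluster, all of which are also made in many other cells. Of these 14, 9 passed 10 RPM and 0 differed from both WT libraries by at least 2-fold in KO or 3′F, in either direction. Their differences of log2(RPM + 1) from the WT mean ran from -0.41 to 0.42 over both mutants, with medians of -0.08 in KO and -0.10 in 3′F, and 4 of the 14 had both mutants below both WT libraries. These counts are near the shares over all miRNAs given above (1.59% and 0.797% at 2-fold, and 27.5% below both WT libraries), so that they are no result about the list. The shares at 2-fold count lower miRNAs only, whereas the 0 of 14 covers both directions. The 4 of 14 were counted with no minimum, whereas the shares are over miRNAs with a mean of at least 10 RPM. miR-16-5p, abundant in red cells and in most other cells, was at 646, 616, 581 and 585 RPM in WT A, WT B, KO and 3′F. miR-25-3p, the most abundant of the list, was at 5075, 6849, 5928 and 5143 RPM in the same order, with the WT libraries further apart than either mutant from them. miR-451b, whose hairpin lies opposite *Mir451a*, was listed at 0 counts in all 4 libraries. Its RefSeq sequence is shown because its hairpin overlaps that of miR-451a on the other strand, although the mature strands share no bases.
mmu-miR-451b: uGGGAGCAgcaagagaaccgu
A second list held 6 miRNAs known to be lowered as red cells mature, such as miR-221-3p, miR-222-3p and miR-155-5p. Of these, 0 differed from both WT libraries by at least 2-fold, with medians of -0.21 in KO and -0.10 in 3′F. Over all 251 miRNAs with a mean of at least 10 RPM, 1.59% in KO and 0.797% in 3′F were at least 2-fold lower. The count of 0 is therefore no result about this list either. miR-221-3p was at 27407, 33586, 24809 and 28499 RPM, and miR-155-5p, induced in activated macrophages, at 71.3, 70.3, 55.2 and 62.7 RPM, in WT A, WT B, KO and 3′F.

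Markers of the labelled cell type were present in every library. miR-21a-5p, the most abundant miRNA of the macrophage and myeloid list, was at 379027, 341385, 333652 and 354381 RPM in WT A, WT B, KO and 3′F. miR-223-3p, a miRNA of granulocytes and macrophages, was at 1574, 1466, 1636 and 1503 RPM, and miR-511-3p, from within the mannose receptor gene of macrophages, at 76.8, 65.6, 80.8 and 66.4 RPM. miR-142a-3p, made in all blood lineages, was at 1721 RPM in WT A and at 1121, 1115 and 1071 RPM in WT B, KO and 3′F. Of the 6, only the targeted miR-146a-5p was at least 2-fold lower than both WT libraries, in KO and in 3′F. Over all 251 miRNAs with a mean of at least 10 RPM, the share was 1.59% in KO and 0.797% in 3′F. The count for the rest of the list is therefore no result about it.

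Markers of other cell types that marrow or its blood could contribute were mostly low. The 3 lymphocyte miRNAs summed to 248, 277, 305 and 245 RPM for WT A, WT B, KO and 3′F, nearly all of it miR-181a-5p, and miR-150-5p, the marker of mature lymphocytes, was at 2.93, 2.80, 2.51 and 1.54 RPM. The pair of endothelial and platelet miRNAs, led by miR-126a-3p, summed to 11.1, 10.2, 14.0 and 11.1 RPM. The 5 stromal miRNAs summed to 10.5, 10.7, 7.51 and 7.19 RPM, with 0 of them at 10 RPM or more on average, and miR-145a-5p was at 0.18 RPM in each WT library and at 0 in both mutants. miR-143-3p, the most abundant stromal miRNA, was at 4.74, 4.91, 2.10 and 2.22 RPM, a difference of -0.91 in KO and -0.86 in 3′F on the log2(RPM + 1) scale that moved with miR-451a and miR-486-5p. Its part in those results was not tested. Of the 5 stromal miRNAs, 3 were lower in both mutants than in both WT libraries. The share was 27.5% over the 251 miRNAs with a mean of at least 10 RPM. That minimum was met by 0 of the 5, and no share was computed at their level. The count is therefore no result about the list. Among the 3 lower in both mutants, miR-145a-5p and miR-214-3p had 5 counts or fewer per library. The arms of miR-199a instead lay between the WT libraries in each mutant. For WT A, WT B, KO and 3′F, miR-199a-3p stood at 3.18, 3.71, 3.63 and 3.21 RPM. The levels of miR-199a-5p were 2.17, 1.49, 1.68 and 1.64 RPM. The 7 muscle miRNAs, which bear on miR-486 because muscle makes it too, summed to 1 RPM or less in each library, with 0.36 RPM in KO and 0.80 RPM in 3′F. Of these, miR-133b-3p, miR-208a-3p and miR-208b-3p were at 0 in all 4 libraries, and miR-1a-3p, the most abundant, was at 0.41, 0.74, 0.26 and 0.80 RPM. Among the 3 liver and plasma miRNAs, miR-122-5p was at 1.23, 1.84, 1.52 and 1.11 RPM, miR-122-3p was at 0 in all 4 libraries, and miR-192-5p was at 248, 222, 357 and 272 RPM.

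**Figure D5:**
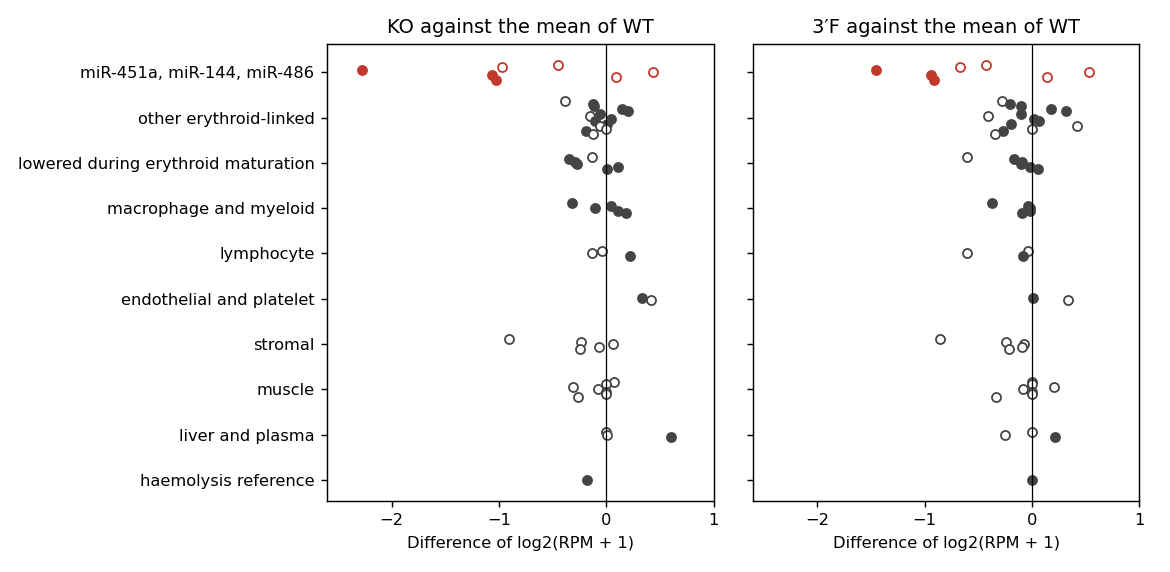
Difference of log2(RPM + 1) from the WT mean in KO (left) and 3′F (right), with a circle for each miRNA of each list, filled where its mean was at least 10 RPM and open where it was lower; miR-146a-5p is left out of the macrophage list. miR-451a and the miR-486-5p lines (red, filled), of a group chosen by these ratios, lie below every filled circle of the other lists in both panels. The open circle of the stromal miR-143-3p lies close to the miR-486-5p lines, at -0.91 in KO and -0.86 in 3′F.

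The miRNAs whose profile over the 4 libraries was nearest to that of miR-451a or miR-486-5p were found by Euclidean distance between log2(RPM + 1) values, each centred on its mean over the 4 libraries, among miRNAs outside the group with a mean of at least 10 RPM. Nearest to miR-451a among these were miR-34c-5p, a p53 target, at a distance of 1.13, miR-874-3p at 1.21 and miR-147-5p at 1.31. The levels of miR-34c-5p, 193, 180, 34.5 and 147 RPM for WT A, WT B, KO and 3′F, were low in KO alone. Within the group, miR-144 with both arms summed lay at 0.95 from miR-451a (1.11 for miR-144-5p and 1.57 for miR-144-3p), at levels below the minimum set for the miRNAs outside it. miR-486-5p, which passed that minimum, lay at 1.18, nearer than miR-874-3p and miR-147-5p. At a minimum of 1 RPM, miR-34b-3p and miR-7679-5p came before miR-34c-5p. Nearest to miR-486-5p outside the group were miR-18a-5p, a member of the miR-17 to miR-92a cluster, at 0.44, miR-874-3p at 0.45 and miR-29b-3p at 0.52, whereas at a minimum of 1 RPM the stromal miR-143-3p came first. miR-874-3p, which was near to both, was at 18.5, 19.9, 9.12 and 13.5 RPM. miR-18a-5p was at 34.2, 28.3, 21.2 and 19.5 RPM, and miR-29b-3p at 40.1, 31.7, 25.4 and 24.6 RPM, so that both kept the order of the WT libraries seen in miR-486-5p. These distances rest on 4 libraries, 2 of them from 1 genotype, and describe likeness of profile in these libraries alone.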

How the data were processed

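Small RNA libraries of 4 BMDM cultures were analysed from the table of the series. The authors deposited estimated counts per mature miRNA and precursor, which were not whole in 10.8% to 12.3% of lines because shared reads were divided. The authors also deposited RPM, each count per 1000000 counts of all 2129 lines of its library. Reads were trimmed with cutadapt 1.8.3 per the submitters' processing notes. The aligner, counter, genome build and miRNA release are not given in the sources used here.

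Of the lines of a mature miRNA with several precursors, that with the highest summed count was kept. Ratios are differences of log2(RPM + 1) from the WT mean, which understates the change of low miRNAs. Intervals are 95% Wilson intervals for levels and shares, and exact conditional binomial intervals for ratios of counts. The a and b lines of miR-486 were summed within an arm. No test was run, as KO and 3′F have 1 library each.

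The miRNAs of the group, the lists (drawn from general knowledge), the alternatives and the rule for names were chosen with earlier results of these data known. The rule names the 7 miRNAs, every miRNA of the lists, and the 3 nearest profiles to miR-451a and to miR-486-5p with a mean of at least 10 RPM. miR-504-5p, miR-34b-3p, miR-7679-5p and the miRNAs named in the closing section for unlike WT libraries were named after their values were seen. Positions are from GENCODE vM21 (GRCm38) and sequences from RefSeq (GRCm38.p6), whose build was not matched to that of the table. Alternatives were other scalings (TMM of edgeR 4.0.16, size factors of DESeq2 1.42.0 on rounded counts, RPM over 1 line per miRNA and RPM without miR-21a-5p), a pseudocount of 0.1 RPM, each WT library left out, other minimums and other thresholds. The functions were tested on simulated data. R 4.3.3, Python 3.11.15, numpy 2.4.6, pandas 2.3.3, scipy 1.17.1, matplotlib 3.10.9 and RNAfold 2.7.2 were used.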

Additional observations from a re-analysis of the deposited data

How the results depend on the processing

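Of the 166 values computed under alternatives, 4 changed sign, 34 moved beyond the spread and 128 did not. The spread was the SD of the WT cultures, the counting interval or, for counts of miRNAs, 1.5 times, so that values with a wide spread could move far within it. miR-451a and both miR-486-5p lines stayed below WT in both mutants under each alternative tried. Without WT B, miR-486a-3p became -0.27 in KO and -0.17 in 3′F, and miR-486b-3p became -0.060 in KO and -0.012 in 3′F. With a pseudocount of 0.1 RPM, the log2 difference in KO and 3′F was -1.59 and -1.45 for miR-144-3p, -2.36 and -1.33 for miR-144-5p, and 0.62 and 0.82 for miR-486b-3p. For miR-144-3p it was -0.63 and -0.59 without miR-21a-5p in the total, and for miR-486b-3p 0.46 and 0.57 with the a and b lines summed.

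The number of the group at least 2-fold lower, 1 in each mutant, became 0 in both at a minimum of 100 RPM, 3 in both at 1.5-fold, and 0 in 3′F at 3-fold. Over all miRNAs, the count in KO became 8 at 1 RPM, 2 at 100 RPM, 8 with no minimum and 15 at 1.5-fold. In 3′F it became 1 at 100 RPM, 5 at 1.5-fold and 1 at 3-fold.

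Leaving out each WT library in turn, the difference in KO and 3′F ranged from -2.61 to -1.95 and from -1.78 to -1.12 for miR-451a, from -0.55 to -0.36 and from -0.52 to -0.33 for miR-144-3p, and from -1.29 to -0.65 and from -0.99 to -0.35 for miR-144-5p. It ranged from -1.17 to -0.95 and from -1.05 to -0.83 for miR-486a-5p, from -1.15 to -0.91 and from -1.03 to -0.79 for miR-486b-5p, from -0.27 to 1.13 and from -0.17 to 1.24 for miR-486a-3p, and from -0.06 to 0.24 and from -0.01 to 0.29 for miR-486b-3p. The group's count at least 2-fold lower ranged from 1 to 3 in both mutants (3 without WT B, which adds both miR-486-5p lines), and the count over all miRNAs from 6 to 9 in KO and from 2 to 4 in 3′F.

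With the miR-486a lines alone, the 3p share was 5.10% for WT A, 1.36% for WT B, 8.80% for KO and 8.88% for 3′F. Over miR-144-3p alone, the ratio of miR-451a was 45.6 for WT A, 48.9 for WT B, 39 for KO (26 over miR-144-5p alone) and 65 for 3′F. With a minimum of 1 RPM, an alternative chosen after seeing the data, 1 of the 3 profiles nearest to miR-451a was shared, and 2 of the 3 nearest to miR-486-5p, with miR-143-3p in place of miR-29b-3p. The cause of these changes was not tested, beyond the fewer libraries or lines that an alternative holds. No scaling moved the median ratio of all miRNAs by more than 0.078. No paired analysis was run. The WT, KO and 3′F groups share only the replicate letter A, which the study gives as an identifier of replicate BMDM cultures. The values without WT B, given above, set KO and 3′F against WT A alone. Depth limits miR-144 and miR-486b-3p, each of them at a few counts.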

Other observations

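The WT cultures themselves were at least 2-fold apart in 4 of the 439 miRNAs with a mean of at least 1 RPM (0.911%), and in 0 of the 251 with a mean of at least 10 RPM. Among the 4 was miR-486a-3p, at -1.41 for WT B minus WT A on the log2(RPM + 1) scale. Also lower in WT B was miR-935, at 2.64 RPM in WT A (45 counts), 0.70 RPM in WT B (8 counts), 2.20 RPM in KO and 2.04 RPM in 3′F, so that, like miR-486a-3p, WT B alone was low and the mutants lay near WT A. miR-877-3p, which is cut from an intron that forms a hairpin by itself, had the opposite profile, at 2.58 RPM in WT A (44 counts), 10.5 RPM in WT B (120 counts), 9.06 RPM in KO and 11.5 RPM in 3′F, with WT A alone low. WT A had 0 counts of miR-1948-5p and WT B 19, and it stood at 5.5 RPM in KO and 0 in 3′F. These 4 miRNAs were picked for the difference between the WT libraries, which is therefore a description.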
